A study of Homo sapiens with 8 samples.

Results

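Enzymes that need 2-oxoglutarate as a cosubstrate, other than the oxygen-sensing and collagen hydroxylases, were followed in T47D, a human breast carcinoma cell line of the estrogen receptor positive, luminal type. The members were 40 named genes of this enzyme class, and their probe sets were found by gene symbol in the platform's probe table. All 40 genes had a probe set that carries a single gene name, 42 probe sets in all out of 21214 with a gene name; KDM8 and TET2 had 2 each. Dioxygenases of this class use iron, oxygen and 2-oxoglutarate to hydroxylate a substrate, and release succinate and carbon dioxide. EGLN2, the gene targeted in the study, encodes a prolyl hydroxylase of the same cofactor class. Where the hydroxylated carbon belongs to a methyl group on nitrogen, the methyl group is lost, which is how JmjC proteins remove histone methyl marks and how ALKBH proteins and FTO repair or edit nucleic acids. TET enzymes instead oxidise methylated cytosine in DNA, and further members act on carnitine precursors, phytanic acid or protein side chains.

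Every culture had been infected with lentivirus that carries a conditional hairpin, either against EglN2 or the control named Scr. From each line there were arrays of untreated cells (day 0) and of cells given doxycycline at 1 ug/ml for 48 h (day 2), with 2 arrays in each of the 4 groups. The labels give one hairpin against EglN2 and do not say whether a line is a clone or whether replicates are separate cultures. The p-values therefore measure only the spread between these arrays, which may be technical. Signal is given as the RMA log2 level of a probe set, so a difference of 1 is a 2-fold difference in signal. Levels of different probe sets are not set against each other, since each has its own probes.

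The arrays were alike in their overall distribution: their medians over named probe sets lay between 7.81 and 7.86, and replicates correlated at 0.992 to 0.997. Luminal markers (ESR1, PGR, GATA3, FOXA1, KRT8, KRT18, KRT19 and EPCAM) had a mean level of at least 6 on 11 of their 12 probe sets. Markers of leukocytes, endothelium, fibroblasts and basal epithelium reached that level on 7 of 11 probe sets, up to 8.68 for the collagen gene COL1A1, and lay as low as 3.76 for a probe set of the endothelial gene PECAM1. EGLN2 itself, on a probe set that also carries the RAB4B-EGLN2 read-through name, read 8.85 and 9.04 in the EglN2 shRNA line at day 0 and 8.26 and 8.29 at day 2. The Scr arrays gave 8.97 and 9.0, then 8.81 and 8.90. Both EglN2 shRNA arrays of day 2 were below the other 6, but the change of -0.67 (SE 0.11) missed the threshold over all probe sets (limma, adjusted p = 0.134). In such bulk samples fewer expressing cells and less RNA per cell cannot be told apart.

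None of the 42 member probe sets passed in any of the 7 comparisons (limma, Benjamini-Hochberg adjusted p under 0.05 over 21214 probe sets). Between day 2 and day 0 of the EglN2 shRNA line, 0 members and 0.00943% of all probe sets passed, and an unadjusted p under 0.05 was seen for 2 members (4.76%) against 5.77% of all probe sets. In the Scr line 0 members and 0 of all probe sets passed, with 6 members (14.3%) against 12.9% at an unadjusted p under 0.05. For the difference of these changes, 0 members and 0 of all passed, with 3 members (7.14%) against 7.12% unadjusted. The arrays of day 0 and day 2 did not overlap for 16 members (38.1%) against 30.7% of all probe sets with the EglN2 hairpin, and for 17 (40.5%) against 47.8% with Scr. Single arrays moved the unadjusted counts of members. In the EglN2 shRNA line the count was 1 without its day 0 replicate 1 and 5 without its day 2 replicate 2. In the Scr line it was 1 without day 2 replicate 1, and 2 without day 2 replicate 2 or day 0 replicate 1. For the difference of changes it was 0 without Scr day 2 replicate 1 or EglN2 shRNA day 0 replicate 1, and 1 to 4 without another array.

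Between the lines at day 0, 0 members and 0 of all probe sets passed, with 5 members against 10.4% of all (11.9% of members) at an unadjusted p under 0.05. At day 2 between the lines 0 members passed against 0.0754% of all, with 3 members (7.14%) against 5.19% unadjusted. Averaged over both lines, the day comparison sets 4 arrays against 4; 0 members passed against 0.141% of all, with 6 (14.3%) against 10.7% unadjusted. Averaged over both days, the line comparison had 0 members past the threshold against 0.0330% of all, with 5 (11.9%) against 8.07% unadjusted. Single arrays moved these unadjusted counts too. Between the lines at day 0 the count of members was 2 when Scr day 0 replicate 1 was left out, and 1 and 3 when replicate 1 and replicate 2 of the EglN2 shRNA line at day 0 were. At day 2 it was 5 when either Scr day 0 array was left out. Over both days it was 1 when Scr day 2 replicate 1, and 2 when EglN2 shRNA day 0 replicate 1, was left out. Over both lines it was 2 when Scr day 2 replicate 1 was left out. These comparisons share arrays, so a probe set with a high or low pair of arrays appears in several of them.

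Confidence intervals, one probe set at a time, bound the size of the differences. In the EglN2 shRNA line the median change over the members was 0, beside 0.01 over all probe sets, with 21 members positive (50%, against 50.6% of all) and 21 negative. Every 95% confidence interval lay within a 2-fold change, and 41 of 42 lay within 1.5-fold; the exception was KDM4D. In the Scr line the median was 0.02 beside -0.01, with 24 members positive (57.1%, against 47.5% of all) and 18 negative, and 39 of 42 intervals lay within 1.5-fold. That positive share depended on the scaling: it was 54.8% with the arrays centred on their medians and 38.1% after quantile normalization. For the difference of changes the intervals were wider, with 34 of 42 within 1.5-fold. Absolute changes had a median of 0.07 over the members and 0.09 over all probe sets in the EglN2 shRNA line, and of 0.08 against 0.13 in the Scr line. Between the lines at day 2 the members had the larger median, 0.11 against 0.085. In the remaining comparisons theirs was the smaller. Over the 8 arrays a member's range ran from 0.15 for OGFOD3 to 0.74 for KDM4D and KDM7A, with a median of 0.39 beside 0.41 for all probe sets.

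**Figure D1:**
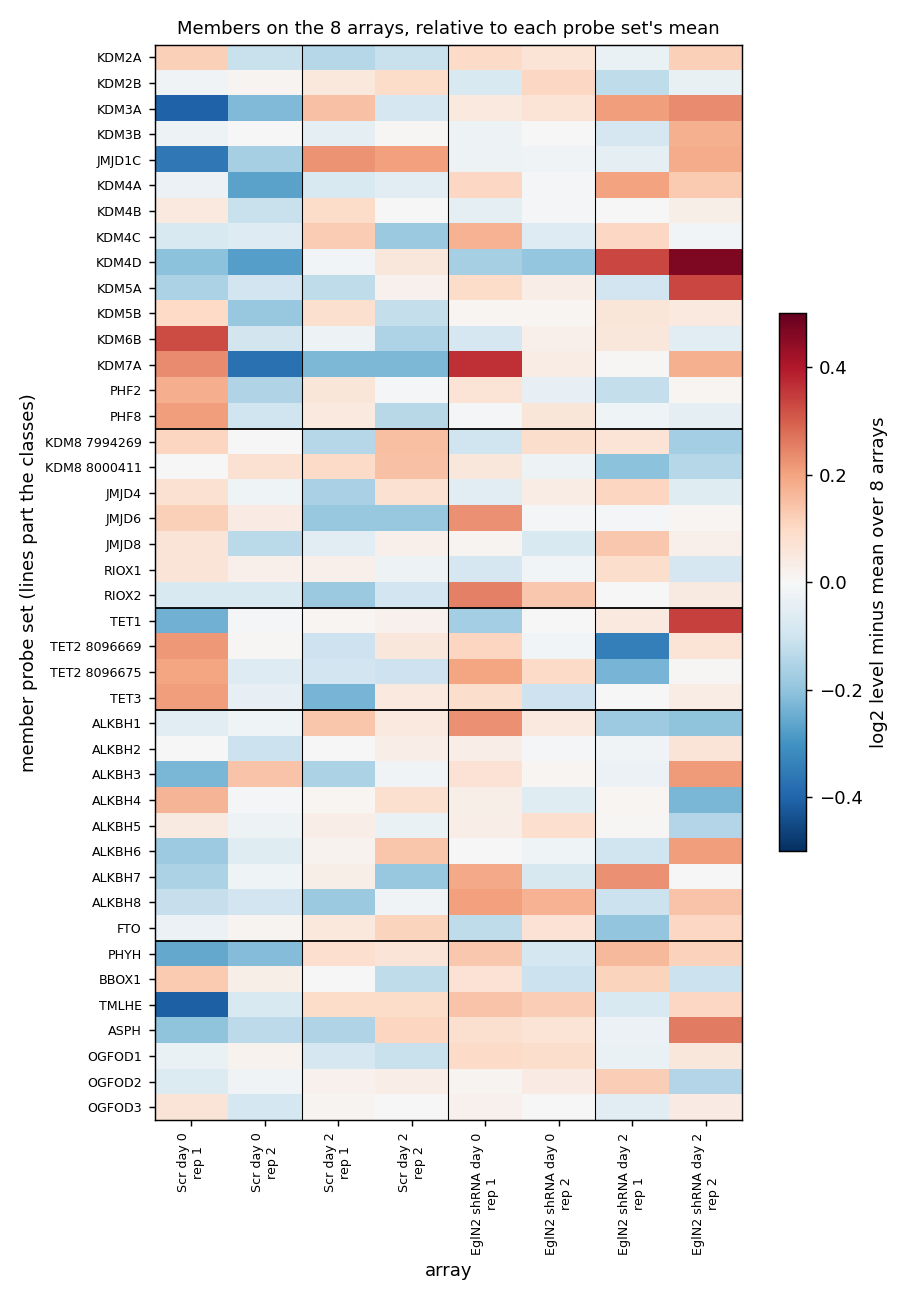
Log2 level of each of the 42 member probe sets (rows, grouped by class) on each of the 8 arrays (columns, grouped by line and day), minus that probe set's mean over the arrays; red is above and blue below the mean. KDM4D is highest on both EglN2 shRNA day 2 arrays, KDM3A and PHYH are lowest on both Scr day 0 arrays, and most other rows show no block of colour shared by a pair of replicates.

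Histone lysine demethylases of the JmjC family were the largest class, with 15 genes. They remove methyl groups from lysines of histones H3 and H4 and so take part in switching chromatin between active and silent states. KDM3A and KDM4B are known to be induced through hypoxia-inducible factor (HIF), the transcription factor whose alpha subunits EGLN enzymes hydroxylate. In the EglN2 shRNA line 9 of the 15 had a positive change and 6 a negative one, with a median of 0.05 and 0 past the threshold. In the Scr line 10 were positive and 5 negative, with a median of 0.04.

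KDM4D, which removes repressive methyl marks from histone H3 and is best known from testis, had the largest change among the members in the EglN2 shRNA line. It read 6.70 and 6.67 in that line at day 0 and 7.20 and 7.33 at day 2. The Scr arrays gave 6.66 and 6.59 at day 0 and 6.85 and 6.92 at day 2. Day 2 was above day 0 on every array of both lines, and the EglN2 shRNA arrays of day 2 were above all others. The change was 0.58 (SE 0.10, 95% confidence interval 0.35 to 0.81, limma adjusted p = 0.170) with the EglN2 hairpin, a 1.5-fold higher signal. With the Scr hairpin it was 0.26 (SE 0.10, adjusted p = 0.354). Averaged over the lines it was 0.42 (SE 0.07, limma adjusted p = 0.0761), the smallest adjusted p of any member, and short of the threshold. The difference of the changes, 0.32, had an interval from -0.0034 to 0.64 (limma adjusted p = 0.697).

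KDM3A, a demethylase of repressive marks that coactivates nuclear receptors, read 7.55 and 7.73 in the Scr line at day 0. Its other 6 arrays all lay higher: 8.10 and 7.87 in the Scr line at day 2, 8.0 and 8.02 in the EglN2 shRNA line at day 0, and 8.16 and 8.19 there at day 2. The lowest pair is thus the control line without doxycycline. The Scr change was 0.35 (SE 0.12, limma adjusted p = 0.320) and that of the EglN2 shRNA line 0.17 (SE 0.12, adjusted p = 0.962). Over both days the EglN2 shRNA line was higher by 0.28 (SE 0.08, limma adjusted p = 0.486), and none of these passed.

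KDM4B, the other demethylase known to respond to hypoxia and a coactivator of the estrogen receptor, varied little. It read 9.49 and 9.33 in the Scr line at day 0, 9.53 and 9.44 at day 2, 9.39 and 9.43 in the EglN2 shRNA line at day 0, and 9.44 and 9.47 at day 2. Among groups that share a line or a day, only those of the EglN2 shRNA line did not overlap. There day 2 was above day 0 by 0.05 (95% confidence interval -0.19 to 0.28). A change of KDM4B by 1.5-fold lies outside that interval.

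The windows just upstream of the starts of these 3 genes are shown because ACGTG is a form of the core that HIF binds. The demethylases known to answer HIF can be set beside the one with the largest change. They are the 250 bases before the most upstream RefSeq start in GRCh38.p14, all on the plus strand, 5′ to 3′: chr2:86441121-86441370 for KDM3A, chr19:4968863-4969112 for KDM4B and chr11:94973459-94973708 for KDM4D. Capitals mark ACGTG or its reverse complement CACGT. The form GCGTG was not searched and is not marked, though it occurs in the KDM3A and KDM4B windows.
KDM3A: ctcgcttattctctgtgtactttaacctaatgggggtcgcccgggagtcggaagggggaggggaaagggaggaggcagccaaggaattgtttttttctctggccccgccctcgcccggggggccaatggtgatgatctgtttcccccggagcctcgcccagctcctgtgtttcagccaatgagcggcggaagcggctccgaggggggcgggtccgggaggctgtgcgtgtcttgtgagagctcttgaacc
KDM4B: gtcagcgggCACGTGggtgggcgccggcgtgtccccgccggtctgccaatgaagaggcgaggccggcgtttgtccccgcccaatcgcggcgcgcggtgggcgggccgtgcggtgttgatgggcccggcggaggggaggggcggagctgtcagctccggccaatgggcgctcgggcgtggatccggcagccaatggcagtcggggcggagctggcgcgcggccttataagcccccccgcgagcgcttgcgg
KDM4D: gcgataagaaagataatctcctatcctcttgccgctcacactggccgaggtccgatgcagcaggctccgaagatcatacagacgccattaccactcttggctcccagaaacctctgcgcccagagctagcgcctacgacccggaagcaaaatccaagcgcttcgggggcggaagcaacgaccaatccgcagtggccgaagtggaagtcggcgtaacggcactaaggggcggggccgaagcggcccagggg
KDM4B held ACGTG in both orientations in overlapping letters, 241 and 240 bases before the start. The windows of KDM3A and KDM4D did not hold ACGTG on either strand. Over all 35116 windows of this length in the RefSeq table, 18.5% held ACGTG on either strand, as did 8 of the 55 windows (14.5%) that belong to 36 of the members. RIOX1, RIOX2, JMJD6 and ASPH had no entry.

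JMJD1C, a large JmjC protein related to KDM3A, read 9.37 and 9.56 in the Scr line at day 0 and 9.95 and 9.93 at day 2. The EglN2 shRNA arrays gave 9.70 and 9.71 at day 0 and 9.68 and 9.91 at day 2. The Scr line thus held both the lowest and the highest pair of arrays, while the EglN2 shRNA pairs overlapped. Its Scr change of 0.48 (SE 0.12, limma adjusted p = 0.257) was the largest of the members in that line. The EglN2 shRNA change was 0.09 (SE 0.12), and the difference of changes was -0.39 (SE 0.17, limma adjusted p = 0.696).

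KDM4A, which demethylates the same histone lysines as KDM4B, read 9.42 and 9.18 in the Scr line at day 0 and 9.37 and 9.39 at day 2. The EglN2 shRNA arrays gave 9.55 and 9.44, then 9.65 and 9.58, so that all 4 arrays of this line were above all 4 Scr arrays. That line difference was 0.22 (SE 0.08, limma adjusted p = 0.593). KDM4A and RIOX2 were the 2 members (4.76%) whose lines did not overlap over both days, against 3.51% of all probe sets.

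The other 10 demethylases (KDM2A, KDM2B, KDM3B, KDM4C, KDM5A, KDM5B, KDM6B, KDM7A, PHF2 and PHF8) had no unadjusted p under 0.05 in any comparison. Their changes in the EglN2 shRNA line lay between -0.11 for KDM7A and 0.06 for KDM3B. KDM7A was the least precise, since its Scr day 0 replicates read 8.52 and 7.91. KDM5B, a demethylase of active promoter marks that is abundant in luminal breast cancer, stayed between 10.84 and 11.13 on all arrays.

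**Figure D2:**
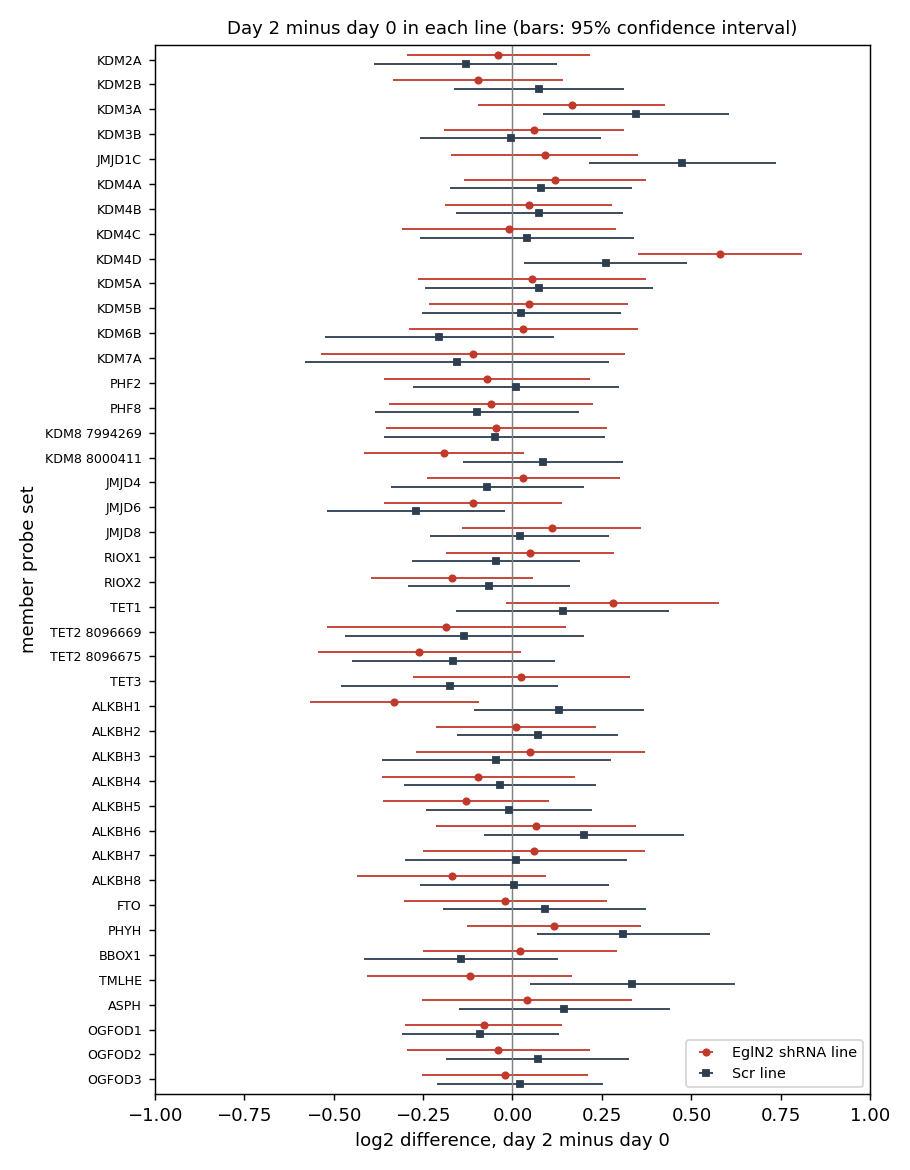
Change from day 0 to day 2 (log2, horizontal axis) of each member probe set in the EglN2 shRNA line (red circles) and the Scr line (dark squares), with 95% confidence intervals from limma. The KDM4D interval of the EglN2 shRNA line, 0.35 to 0.81, lies farthest from 0, and no interval of either line reaches a 2-fold change.

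The 6 other JmjC enzymes hydroxylate proteins or have debated activities, and filled 7 probe sets. JMJD6, a lysyl hydroxylase of splicing factors, read 9.82 and 9.74 in the Scr line at day 0 and 9.51 on both arrays at day 2. The EglN2 shRNA arrays gave 9.93 and 9.69 at day 0 and 9.69 and 9.71 at day 2. Between the days only the Scr pairs were apart, with a change of -0.27 (SE 0.11, limma adjusted p = 0.365), while the EglN2 shRNA change was -0.11 (SE 0.11). RIOX2, which hydroxylates a ribosomal protein, read 8.84 on both Scr arrays of day 0 and 8.73 and 8.82 at day 2. It read 9.17 and 9.05 in the EglN2 shRNA line at day 0 and 8.92 and 8.96 at day 2. That line was higher on all 4 arrays, by 0.22 (SE 0.07, limma adjusted p = 0.551) over both days.

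KDM8, an arginyl hydroxylase linked to cell division, has 2 probe sets that differed in pattern. The first, 8000411, read 6.02 and 6.10 in the Scr line at day 0, 6.12 and 6.17 at day 2, 6.08 and 6.0 in the EglN2 shRNA line at day 0, and 5.82 and 5.88 at day 2. There the EglN2 shRNA day 2 pair was the lowest, 0.30 below the Scr line (SE 0.10, limma adjusted p = 0.736). The second, 7994269, read 7.46 and 7.35, then 7.21 and 7.50 in the Scr line, and 7.25 and 7.44, then 7.42 and 7.18 in the EglN2 shRNA line. All its groups overlapped. JMJD4, JMJD8 and RIOX1 had changes from 0.03 to 0.11 in the EglN2 shRNA line and from -0.07 to 0.02 in the Scr line.

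TET enzymes start the removal of DNA methylation by oxidising methylcytosine. TET1 read 6.63 and 6.86 in the Scr line at day 0, 6.88 and 6.89 at day 2, 6.70 and 6.87 in the EglN2 shRNA line at day 0, and 6.92 and 7.21 at day 2. Every day 2 array was above every day 0 array, and TET1 and KDM4D were the 2 members (4.76%) of which this held. Of all probe sets 2.98% were apart in this direction and 5.09% in either direction. The change averaged over the lines was 0.21 (SE 0.09, limma adjusted p = 0.466). TET2 pointed the other way on both of its probe sets. On 8096675 it read 8.49 and 8.23 in the Scr line at day 0, 8.20 and 8.19 at day 2, 8.49 and 8.39 in the EglN2 shRNA line at day 0, and 8.06 and 8.30 at day 2. On 8096669 it read 7.74 and 7.53, then 7.42 and 7.58 in the Scr line, and 7.63 and 7.51, then 7.18 and 7.59 in the EglN2 shRNA line, with overlap in each. Averaged over the lines the differences were -0.21 (SE 0.09, limma adjusted p = 0.441) and -0.16 (SE 0.11). TET3 read 8.64 and 8.39, then 8.20 and 8.48 in the Scr line, and 8.52 and 8.33, then 8.43 and 8.47 in the EglN2 shRNA line, with all groups overlapping.

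ALKBH proteins and FTO remove methyl groups from nucleic acids, and some act on transfer RNA or protein. ALKBH1, a demethylase of transfer RNA and DNA, read 9.40 and 9.22 in the EglN2 shRNA line at day 0 and 8.99 and 8.97 at day 2. The Scr arrays gave 9.12 and 9.15 at day 0 and 9.31 and 9.22 at day 2. The EglN2 shRNA arrays of day 2 were the lowest of the 8, and day 2 was below day 0 on every EglN2 shRNA array and above it on every Scr array. Its change of -0.33 with the EglN2 hairpin (SE 0.11, limma adjusted p = 0.693) was the most negative of any member, against 0.13 with Scr (SE 0.11). The difference of changes was -0.46 (SE 0.15, 95% confidence interval -0.79 to -0.13, limma adjusted p = 0.676), also the most negative among the members.

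ALKBH8, which completes a wobble-base modification of transfer RNA, read 8.27 and 8.24 in the EglN2 shRNA line at day 0 and 7.96 and 8.21 at day 2. The Scr arrays gave 7.95 and 7.97, then 7.88 and 8.05. The EglN2 shRNA day 0 pair was the highest, 0.30 above the Scr line (SE 0.12, limma adjusted p = 0.460). The mRNA demethylases, which erase N6-methyladenosine, varied little. FTO read 9.65 and 9.69, then 9.73 and 9.79 in the Scr line, and 9.55 and 9.75, then 9.48 and 9.78 in the EglN2 shRNA line. ALKBH5 read 10.10 and 10.03, then 10.09 and 10.02 in the Scr line, and 10.09 and 10.14, then 10.06 and 9.91 in the EglN2 shRNA line. The EglN2 shRNA change was -0.02 for FTO (95% confidence interval -0.30 to 0.26) and -0.13 for ALKBH5 (-0.36 to 0.10). ALKBH2, ALKBH3, ALKBH4, ALKBH6 and ALKBH7 had changes between -0.10 and 0.07 in that line and between -0.05 and 0.20 in the Scr line.

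Metabolic and protein hydroxylases formed the last class, with 7 genes. PHYH, the peroxisomal enzyme that starts the breakdown of phytanic acid, read 8.40 and 8.44 in the Scr line at day 0 and 8.74 and 8.72 at day 2. The EglN2 shRNA arrays gave 8.79 and 8.57, then 8.82 and 8.77. As with KDM3A, the Scr day 0 pair was the lowest, and the Scr change was 0.31 (SE 0.11, limma adjusted p = 0.329) beside 0.12 (SE 0.11) in the EglN2 shRNA line. TMLHE, the first enzyme of carnitine synthesis, read 7.85 and 8.18 in the Scr line at day 0 and 8.35 on both arrays at day 2. The EglN2 shRNA arrays gave 8.40 and 8.38, then 8.18 and 8.36. Its Scr change was 0.34 (SE 0.13) and the EglN2 shRNA change -0.12 (SE 0.13), and the difference of changes was -0.46 (SE 0.18, limma adjusted p = 0.680). The 2 Scr replicates of day 0 differed by nearly as much as the Scr change itself, which was 0.17 without Scr day 0 replicate 1 and 0.50 without replicate 2. The difference of changes was -0.29 and -0.62 without them.

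BBOX1, the last enzyme of carnitine synthesis, was the only member with a mean level under 6, the value set for dim probe sets, where 20.2% of all named probe sets lie. A level over 6 does not by itself show expression, since 7 of 11 probe sets for markers of other cells reached 6. KDM4D and TET1 each had a mean of 6.87. BBOX1 read from 4.11 to 4.37 over the arrays with a median of 4.26, and the groups overlapped except in the Scr line, where day 2 was lower by 0.15 (SE 0.12). ASPH, which hydroxylates aspartate in growth factor-like domains, read 8.67 and 8.74, then 8.72 and 8.98 in the Scr line. It read 8.95 and 8.94, then 8.84 and 9.13 in the EglN2 shRNA line. Among groups that share a line or a day, only the day 0 pairs of the lines were apart, by 0.24 (SE 0.13, limma adjusted p = 0.515). OGFOD1, a prolyl hydroxylase of a ribosomal protein, and its relatives OGFOD2 and OGFOD3 had changes between -0.08 and -0.02 in the EglN2 shRNA line.

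**Figure D3:**
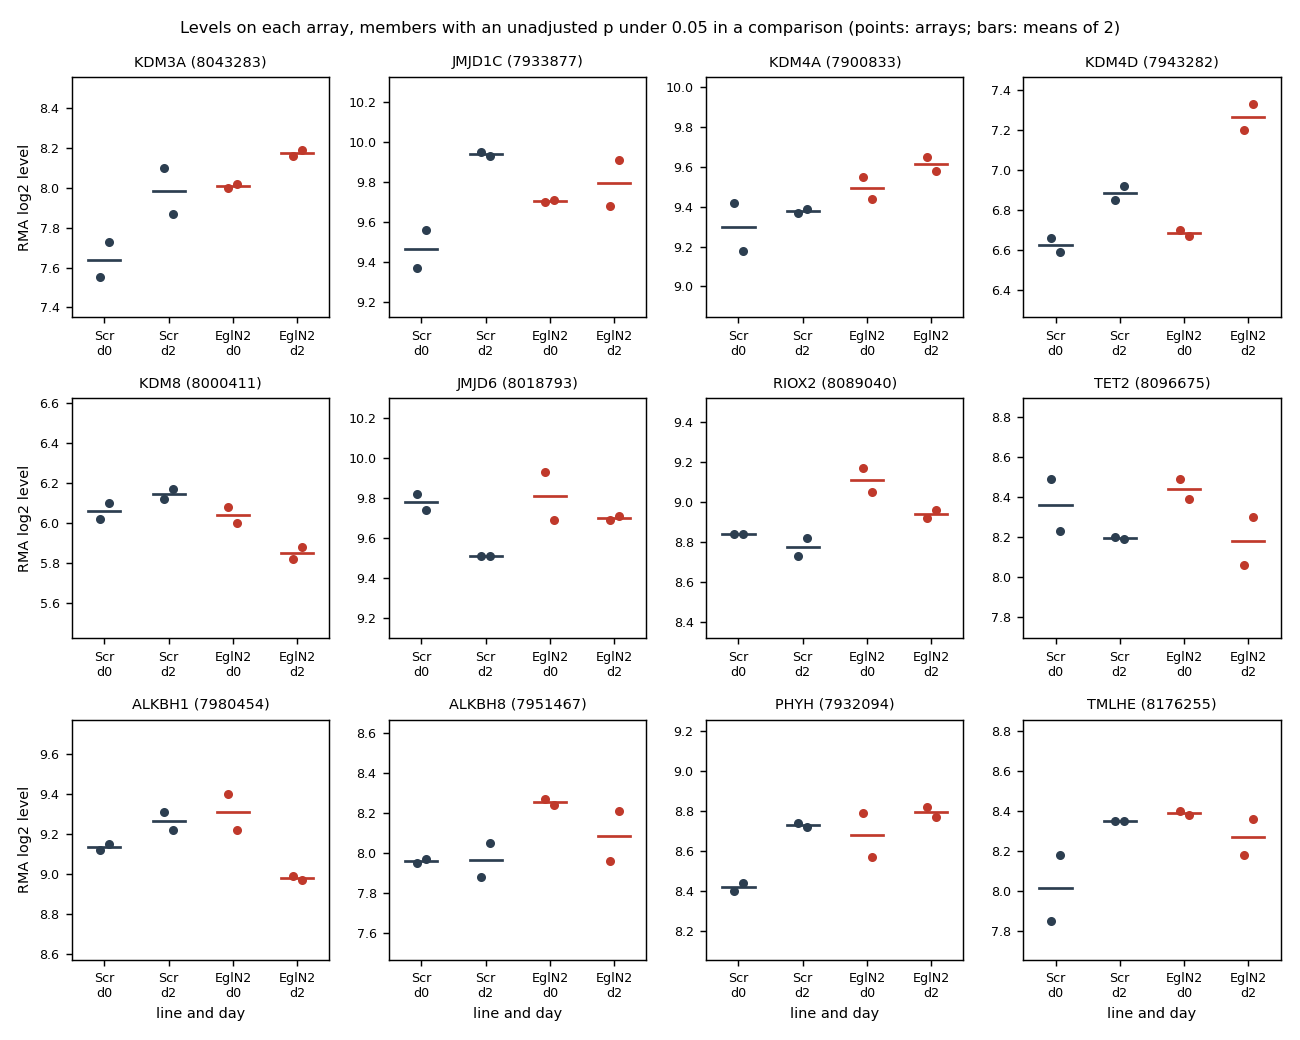
RMA log2 level (vertical axis, 1.2 units in each panel) on each array for the 12 member probe sets with an unadjusted p under 0.05 in at least 1 comparison, by line and day (d0, day 0; d2, day 2); points are arrays and bars the mean of 2. KDM4D reaches 7.33 on an EglN2 shRNA day 2 array, ALKBH1 is lowest on that pair, and KDM3A, JMJD1C and PHYH are lowest on the Scr day 0 pair.

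Which arrays stood apart differed between the members. Both Scr day 0 arrays were below all 6 others for KDM3A, JMJD1C, KDM4D and PHYH, 4 of 42 (9.52%) against 8.47% of all probe sets. The EglN2 shRNA pair of day 0 was above all others for RIOX2, ALKBH8, TMLHE and OGFOD1 (9.52% against 3.43%). At day 2 the EglN2 shRNA pair was above all others for KDM3A, KDM4A, KDM4D and TET1 (9.52% against 4.44%). It was below them for ALKBH1 and KDM8 (4.76% against 3.79%). The Scr pair of day 2 was above all others for JMJD1C and KDM8 (4.76% against 3.54%) and below them for JMJD6, RIOX2 and OGFOD1 (7.14% against 3.29%). These counts are small and were made after the values were seen. No member had both Scr day 0 arrays above all others, against 8.43% of all probe sets, or both EglN2 shRNA day 0 arrays below all others, against 2.57%.

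Before doxycycline the lines differed by a median of 0.06 over the members and 0.01 over all probe sets, and 28 members had the higher mean in the EglN2 shRNA line (66.7%, against 50.1% of all) and 11 the lower. The pairs did not overlap for 14 members in the direction of the EglN2 shRNA line (33.3%, against 22.2% of all probe sets) and for 1 in the direction of Scr (2.38%, against 22.9%). KDM3A (0.37, SE 0.12) and TMLHE (0.38, SE 0.13) had the largest differences there, with limma adjusted p = 0.455 for each. Without Scr day 0 replicate 1 they were 0.28 and 0.21 and KDM7A had the largest (0.58); KDM7A also led without EglN2 shRNA day 0 replicate 2 (0.44). Without Scr day 0 replicate 2, KDM3A stood at 0.46 and TMLHE at 0.54. The median over the members was 0.09 without the first of these Scr arrays and 0.01 without the second. At day 2 the median was 0.07, 10 members (23.8%) were higher without overlap against 15.6% of all, and 4 (9.52%) were lower against 14.8%. The lead of positive over negative signs depended on the scaling. With the values as deposited 66.7% of members had the higher day 0 mean in the EglN2 shRNA line. The share was 73.8% with the arrays centred on their medians and 50% after quantile normalization.

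**Figure D4:**
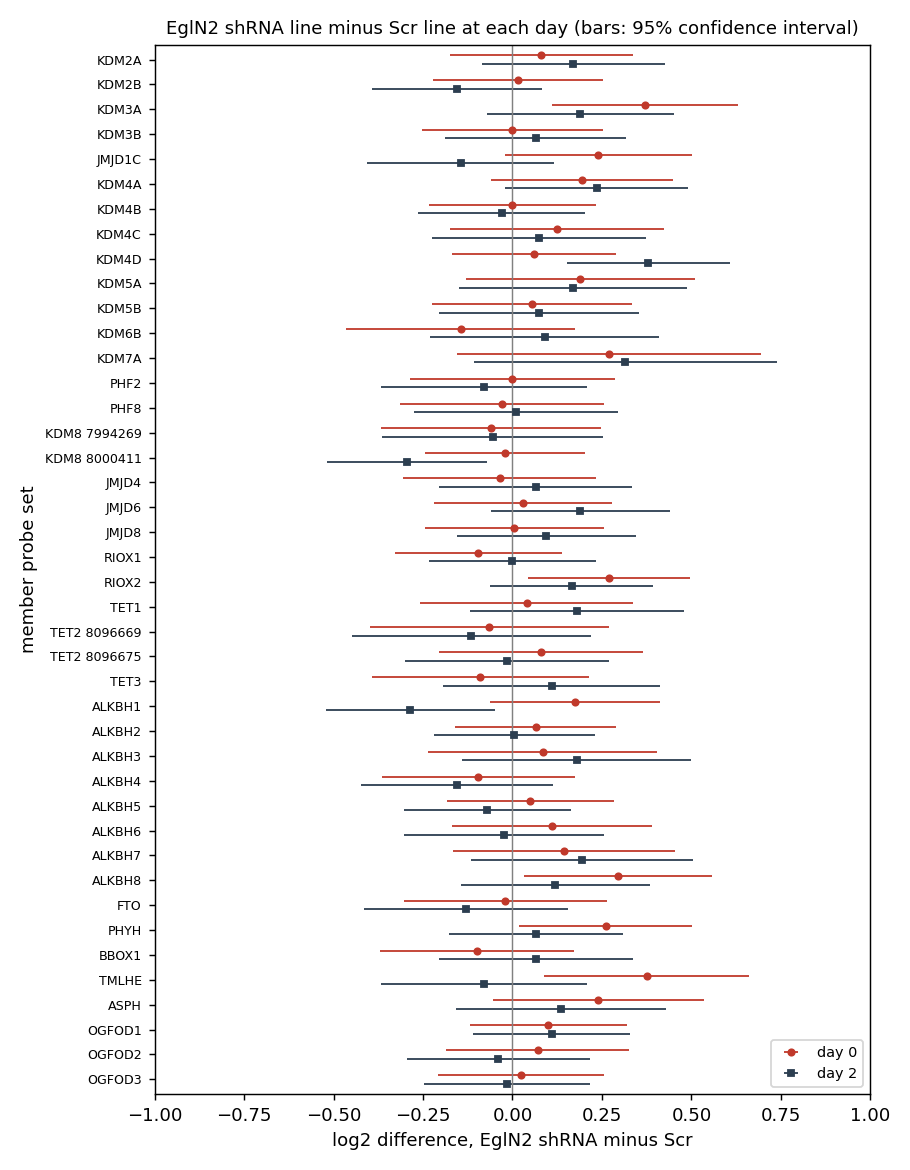
Difference between the lines (EglN2 shRNA minus Scr, log2, horizontal axis) for each member probe set at day 0 (red circles) and day 2 (dark squares), with 95% confidence intervals from limma. KDM3A and TMLHE lie highest at day 0 and KDM4D at day 2 (0.38), while KDM8 8000411 and ALKBH1 lie lowest at day 2; 0 of the 42 passed at either day.

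Other genes grouped with the same enzyme family, and those that write or read the marks the members erase, were counted in the same way. Whether each gene of the first group encodes an active enzyme was not examined. Among 22 further genes of the 2-oxoglutarate oxygenase family on 22 probe sets, EGLN2 included, 0 passed in any of the 7 comparisons with limma. Unadjusted p was under 0.05 for 2 higher and 2 lower in the EglN2 shRNA line (18.2%, against 5.77% of all probe sets) and for 3 higher and 1 lower in the Scr line (18.2%, against 12.9%). EGLN2, the target of the hairpin, was among those lower in the EglN2 shRNA line (-0.67). Histone lysine methyltransferases (31 probe sets), DNA methylation and base excision genes (11), N6-methyladenosine writers and readers (17) and carnitine transport and use genes (10) also had 0 past the threshold in all 7. Their medians in the EglN2 shRNA line were 0.03, -0.06, -0.04 and 0.14, and the counts at an unadjusted p under 0.05 there were 1 higher, 1 lower, 1 lower and 1 lower, or 3.23%, 9.09%, 5.88% and 10% against 5.77% of all probe sets.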

How the data were processed

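RNA was hybridised to Affymetrix Human Gene 1.0 ST arrays, 2 for each of 4 groups taken from the sample titles. Per the submitters' processing notes, the authors used RMA in Affymetrix Expression Console and deposited a log2 level for each probe set; a version is not given in the sources used here. This method subtracts background, aligns the arrays' distributions and summarises probes, so that differences of dim genes shrink. Signal over background was not analysed here.

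Probe sets were named through the platform's gene table, updated by gene ID through RefSeq (GRCh38.p14): 19460 had 1 gene, 1754 several and 12083 none. A model of the 4 group means used limma 3.58.1 under R 4.3.3 (lmFit, eBayes; 4 residual and 5.53 prior degrees of freedom). Tests were two-sided, with Benjamini-Hochberg adjustment over the 21214 named probe sets and a threshold of 0.05. The number of arrays limits the precision: a difference between groups had a median SE of 0.12. The fit was also run on simulated arrays with known changes and independent errors. Such a run cannot show effects shared between arrays, or whether replicates are technical.

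The members and gene lists were chosen with earlier results of these data known. Array values were given for members with an unadjusted p under 0.05 in a comparison and, whatever their values, for KDM3A, KDM4B, JMJD6, TET1, TET2, TET3, FTO, ALKBH5, ASPH, PHYH and BBOX1. The replicate numbers were not taken to pair arrays. Alternatives were a replicate block, only the groups compared, all 33297 probe sets, a dim filter at 6, a trended or robust prior, 2 rescalings and leaving out each array.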

Additional observations from a re-analysis of the deposited data

Results flagged for a closer look

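In 3 members day 2 was below day 0 on every array with the EglN2 hairpin and above it on every array with Scr. Opposite changes of the lines on every array, counted in either direction, were seen for 7.14% of the members and 5.69% of all named probe sets. The share of all probe sets in the direction of these members alone was not counted. The difference of changes was tested with limma in each and missed the threshold. ALKBH1 (probe set 7980454) had a change of -0.33 with the EglN2 hairpin and 0.13 with Scr, a difference of -0.46 (SE 0.15, adjusted p = 0.676). TMLHE (probe set 8176255) had -0.12 and 0.34, a difference of -0.46 (SE 0.18, adjusted p = 0.680), which was -0.29 without Scr day 0 replicate 1 and -0.62 without replicate 2. KDM8 (probe set 8000411) had -0.19 and 0.09, a difference of -0.28 (SE 0.14, adjusted p = 0.702), which its second probe set did not share (0.01, SE 0.19). The mean level of 8000411 was 6.02, close to the value of 6 set for dim probe sets.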

How the results depend on the processing

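The count of members past the threshold stayed at 0 in 108 of 109 pairs of an alternative setting and a comparison. Many of these pairs came from the same fit, which gives several comparisons. The exception was the replicate block, under which 1 member, KDM4D, passed in the day comparison averaged over both lines (0.42, SE 0.07, limma adjusted p = 0.0415). The numbers were not shown to pair arrays: deviations of replicate 1 correlated at 0.098 to 0.271 between groups, and groups of 2 give too few pairs. Over all alternatives that KDM4D value ran from 0.39 to 0.45 and its adjusted p from 0.0415 to 0.394. In the EglN2 shRNA line its change ran from 0.52 to 0.65, with an adjusted p from 0.110 to 0.808. Of 30 member differences with an unadjusted p under 0.05, 0 reversed in 466 pairs of a difference and an alternative setting. Only the 2 rescalings and leaving out an array of the groups compared could move a difference. Under the other settings its sign was fixed beforehand. The KDM4D value under the block was the only one to cross the threshold. Counts over all probe sets varied more: the day comparison averaged over both lines had 30 past the threshold, 0 with unnamed probe sets included and 150 with the block. The EglN2 shRNA line had 2, with a range from 0 to 13, and the Scr line 0, with up to 42 under the block. Between the lines, 16 at day 2 became 0 to 32, and 7 over both days became 0 to 18. Over all alternatives, members with an unadjusted p under 0.05 ran from 1 to 5 in the EglN2 shRNA line (2), 1 to 6 in the Scr line (6), 2 to 9 over both lines (6) and 0 to 4 for the difference of changes (3). Between the lines they ran from 1 to 6 at day 0 (5), 2 to 5 at day 2 (3) and 1 to 7 over both days (5). The median over the members moved by more than its own SD between replicates (0.03) in 14 of the 109 pairs of setting and comparison. Leaving out each array gave medians of -0.05 to 0.01 in the EglN2 shRNA line, -0.0225 to 0.045 in the Scr line and -0.0875 to 0.0275 for the difference of changes, and 0.0125 to 0.09 between the lines at day 0 and 0.03 to 0.065 at day 2. Quantile normalization gave -0.0216 in the Scr line, 0.0089 for the difference of changes, 0 between the lines at day 0, 0.0023 between them over both days and -0.0319 between the days over both lines. Fits without an array leave a group with 1 array, which is then assumed to vary like the others. BBOX1 drops out under the dim filter. With 2 arrays a group and an unknown signal over background, small changes of dim probe sets could not be seen.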
